A study of Mus musculus with 10 samples.

Results

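The nuclear-encoded subunits of the mitochondrial respiratory chain were followed in the retina of rd10 mice, with and without halofantrine, and of WT mice. Members were chosen by gene symbol: Ndufa, Ndufb, Ndufc, Ndufs or Ndufv followed by a number (complex I), Sdha to Sdhd (complex II), Cyc1 and Uqcr (complex III), Cox4 to Cox8 (complex IV) and Atp5 (complex V). Of 11702 genes with deposited values, 78 symbols matched and 76 were kept, with 35 members in complex I, 4 in complex II, 9 in complex III, 12 in complex IV and 16 in complex V. Ndufb1-ps was left out for its pseudogene suffix and Ndufb4c because GENCODE calls it a pseudogene. The annotations differ here, since RefSeq lists both as protein-coding and GENCODE lists Ndufb1-ps as a non-coding RNA. Symbols are the older mouse ones, so that Atp5a1, Atp5b and Atp5c1 stand for the alpha, beta and gamma subunits of the ATP synthase head.

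Bulk RNA was sequenced from retinas of 10 female mice. The rd10 line (B6.CXB1-Pde6b rd10/J, intercrossed) has a mutant Pde6b, the gene for a phosphodiesterase subunit of rods, and its rods die in early life. The strain of the WT mice is not given in the sources used here. Every animal received intravitreal injections of 1 μL at P10 and P24, and retinas were collected at P36. WT DMSO has 4 libraries (W1 to W4), rd10 DMSO has 3 (D1 to D3) and rd10 HAL, injected with 20 μM halofantrine, an antimalarial, has 3 (H1 to H3). By the labels, 7 libraries form batch 1 and 3 form batch 2, which holds D3 with H2 and H3. The sample titles name finer sets. No set holds both WT and rd10 libraries, and W4 is alone in its set, so that set and genotype cannot be told apart. Nothing in the labels says more of how samples relate to animals, so p-values measure the spread between these samples.

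The respiratory chain passes electrons from NADH (complex I) and succinate (complex II) through complex III to oxygen at complex IV, and the proton gradient so built drives ATP synthesis at complex V. Complexes I, III, IV and V combine these nuclear-encoded subunits with others encoded in mitochondrial DNA, whereas complex II is wholly nuclear-encoded. Photoreceptors carry dense mitochondria in their inner segments and are among the retinal cells with the highest energy demand.

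Libraries held 15512212 to 38160436 counts on genes, with D3 the shallowest. The library labelled WT W4 went against its label: the CPM of Pde6b (counts scaled to library size and TMM factors) was 2699, 2850 and 2855 for W1 to W3 and only 93.1 for W4. The 6 rd10 libraries ran from 125 to 387 CPM. Counts against WT are therefore given with and without W4, and values of single genes mostly without it. D3 also stood apart, being more than 0.5 log2 units below both D1 and D2 at 4 members (Ndufs7, Uqcr11, Uqcrq and Atp5d), so values without D3 are given where a call or a value that passed the test rests on it. Retinal markers were present in all libraries, while none of 4 muscle markers was in the gene table.

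To ask how the respiratory chain differs between the degenerating and the WT retina, rd10 DMSO was compared with WT DMSO. With the libraries as labelled, edgeR called no gene at an adjusted p under 0.05, 0% of 11698 tested; 0 of 76 members were called by edgeR or limma-voom and 3 by DESeq2 (4.26% of all genes lower), while 26 members were lower at an unadjusted p under 0.05 and 0 were higher, beside 17.3% and 9.3% of all genes. With W4 left out, 36 of 76 members fell and 0 rose (0 also at an unadjusted p under 0.05 and by DESeq2 and limma-voom), beside 29.9% of all genes called lower and 32.3% called higher. The median log2 fold change of the members was -0.25 against -0.01 over all genes tested, and 71 of 76 members had a negative value. W4 lay below all of W1 to W3 at 35 of the 36 members that fell, and nearer to the mean of the rd10 DMSO libraries than to that of W1 to W3 at 29.

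How far the members fell depends on what the libraries are scaled to. TMM scaling sets the bulk of genes equal between libraries, and it gave W1 to W3 factors of 0.889 to 0.909 and the other libraries factors of 1.04 to 1.06. Scaled to library size alone, with W4 left out, the median of all genes moved to 0.19 and that of the members to -0.04; 12 members were then lower and 5 higher, beside 17.4% and 46.2% of all genes. In CPM without TMM scaling, the 76 members together held 6094 to 6343 in W1 to W3, 5643 to 6154 in rd10 DMSO, 6133 in W4 and 5887 to 6354 in rd10 HAL, so the groups overlap on that measure. Relative to the median of all genes, the median member lay 0.23 log2 units lower (-0.233), with 71 members below it. A change of scaling shifts all genes together and so leaves this distance as it is.

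The 12 members lower under library size alone were all among the 36 lower under TMM scaling. They included Ndufa4, Ndufb11, Ndufv1, Ndufa10 and Ndufb8 of complex I, Uqcrh and Uqcrc1 of complex III, Cox6c and Cox7a2l of complex IV, and Atp5k and Atp5l of complex V. No member of complex II was among them. The 5 that were higher under library size alone, each of them not called under TMM scaling, were Ndufa8, Ndufs4, Uqcrc2, Cox4i2 and Atp5mpl.

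**Figure D1:**
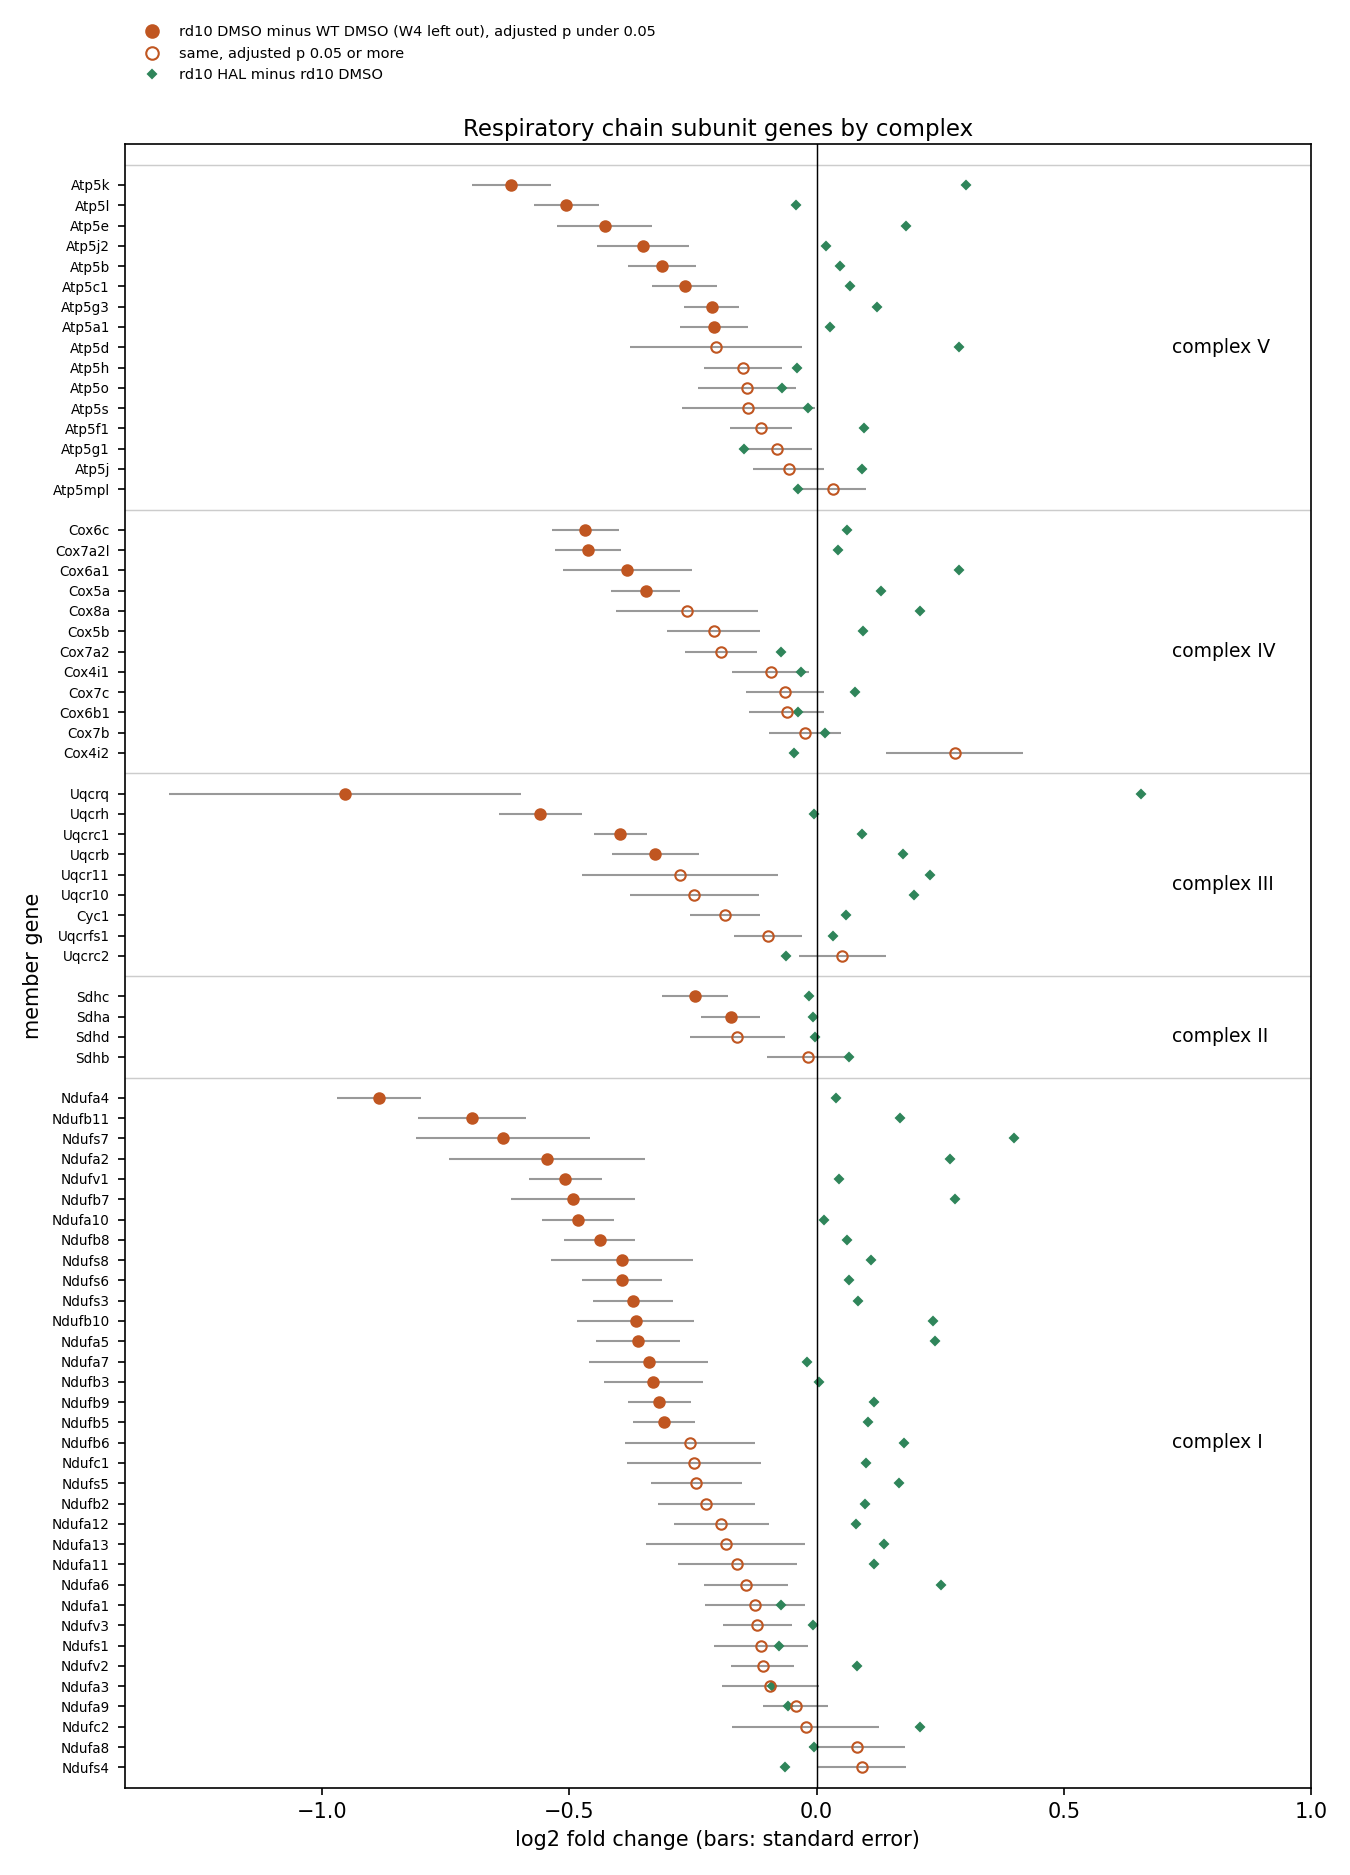
Log2 fold change of members by complex; circles show rd10 DMSO minus WT DMSO with W4 left out (TMM scaling), filled where the adjusted p of edgeR is under 0.05, with standard errors as bars, and diamonds show rd10 HAL minus rd10 DMSO. The filled circles all lie left of 0, and within each complex the members run from clear falls to values near 0.

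Complex I, the NADH dehydrogenase, held 18 of the 36 members that fell, out of 35 (51.4%, beside 29.9% of all genes), with a median log2 fold change of -0.31. The rest of this account of complexes gives TMM-scaled CPM and, unless stated, edgeR's quasi-likelihood test with W4 left out and Benjamini-Hochberg adjustment over all genes. With W4 kept as labelled, no member was called (adjusted p of 0.187 or more), and the log2 fold changes were -0.42 for Ndufv1, -0.58 for Ndufb11, -0.16 for Sdha, -0.46 for Uqcrh, -0.36 for Cox7a2l and -0.60 for Atp5k.

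Ndufa4 was first described in complex I and is now counted as a subunit of cytochrome c oxidase. It stood at 166, 165 and 187 CPM in W1 to W3, 90.5 in W4, 92.0, 85.2 and 101 in D1 to D3, and 83.8, 103 and 99.0 in H1 to H3. The 3 WT libraries other than W4 were above all 7 others. Its log2 fold change in rd10 DMSO was -0.89 ± 0.085 (SE; adjusted p = 0.00012), and -0.71 with the libraries as labelled (adjusted p = 0.19).

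The core subunits of complex I did not move as one. Ndufv1, which binds NADH, fell from 148 ± 11.7 CPM (SD, n = 3) in W1 to W3 to 103 ± 4.6 (n = 3) in D1 to D3, a log2 fold change of -0.51 (edgeR adjusted p = 0.00074). Ndufs7 and Ndufs8, which carry iron-sulfur clusters, fell by 0.64 and 0.39 on the log2 scale (adjusted p = 0.015 and 0.044), but neither was called under library size alone, and without D3 the falls were 0.45 and 0.25. Over coding transcripts Ndufs7 was not called (-0.69, adjusted p = 0.21). Ndufv2 and Ndufs1, at -0.11 each, did not pass the test, but both were called lower without D3 (-0.16 and -0.23, adjusted p = 0.019 and 0.0029) and with a batch term (-0.19 and -0.21, adjusted p = 0.0082 and 0.0047). Under library size alone their values turned to 0.10 and 0.09, with no call. They were at 63.0 ± 0.74 and 121 ± 3.1 CPM in W1 to W3 against 58.0 ± 3.5 and 111 ± 14.5 in D1 to D3 (SD, n = 3).

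Among accessory subunits of the membrane arm, Ndufb11 stood at 70.1, 78.2 and 70.5 CPM in W1 to W3, 47.4 in W4 and 51.3, 44.3 and 38.2 in D1 to D3, with no overlap (log2 fold change -0.70 ± 0.11, adjusted p = 0.0011). Ndufb8 fell from 70.4 ± 2.6 to 51.6 ± 3.8 CPM (SD, n = 3; edgeR adjusted p = 0.0013). Ndufa10 fell from 102 ± 1.1 to 72.7 ± 6.2 CPM (SD, n = 3; edgeR adjusted p = 0.0009). Ndufb11 and Ndufa10, and Uqcrq, Atp5e and the transcripts given here, were chosen after their values were seen. Ndufa13, another accessory subunit, was at 48.2 ± 3.1 and 42.0 ± 10.1 CPM (SD, n = 3) and was not called (adjusted p = 0.35). At the other end of complex I, Ndufs4 and Ndufa8 had log2 fold changes of 0.09 and 0.08 (adjusted p = 0.40 and 0.49). Their levels overlapped between groups, with 33.0 to 36.7 and 31.0 to 38.1 CPM in W1 to W3 against 34.2 to 40.7 and 34.5 to 39.4 in D1 to D3.

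In complex II, succinate dehydrogenase, 2 of 4 members fell, beside 29.9% of all genes. Sdhc, a membrane anchor, and Sdha, the flavoprotein, fell by 0.25 and 0.17 on the log2 scale (adjusted p = 0.014 and 0.036). Sdha stood at 389, 392 and 389 CPM in W1 to W3, 359 in W4 and 334, 336 and 359 in D1 to D3. W1 to W3 lie above all of D1 to D3, yet under library size alone the value of Sdha turned to 0.03 and that of Sdhc shrank to -0.04, and neither was called there. Sdhb, the iron-sulfur subunit, was at 46.7 ± 2.6 CPM in W1 to W3 and 45.8 ± 3.8 in D1 to D3 (SD, n = 3). Sdhd, the other anchor, was at 46.5 ± 4.9 and 41.3 ± 3.1 CPM (SD, n = 3), and neither passed the test.

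In complex III, 4 of 9 members fell (44.4%, beside 29.9% of all genes). Uqcrh, the hinge protein that binds cytochrome c1, stood at 112, 108 and 111 CPM in W1 to W3, 78.0 in W4, 76.6, 65.4 and 80.9 in D1 to D3 and 70.8, 76.1 and 75.0 in H1 to H3. The log2 fold change in rd10 DMSO was -0.56 ± 0.084 (adjusted p = 0.0009). Uqcrc1, a core protein, fell from 164 ± 4.5 to 123 ± 3.9 CPM (SD, n = 3; edgeR adjusted p = 0.00054). Its partner core protein Uqcrc2 was at 133 ± 3.3 and 137 ± 16.0 CPM (SD, n = 3) and was not called (edgeR adjusted p = 0.63). The redox subunits Cyc1 (cytochrome c1) and Uqcrfs1 (the Rieske protein) had log2 fold changes of -0.19 and -0.10 (adjusted p = 0.053 and 0.25), and Cyc1 was called lower with a batch term (-0.18, adjusted p = 0.031) but turned to 0.02 under library size alone and 0.18 over coding transcripts, with no call. Uqcrq fell by 0.95 on the log2 scale (adjusted p = 0.048), which rests in part on D3: it was at 32.6 to 39.9 CPM in W1 to W3, 25.0 in D1, 21.95 in D2 and 7.75 in D3, and the fall was 0.62 without D3 (adjusted p = 0.00068). Uqcrq was not called under library size alone (-0.75, adjusted p = 0.10) or over coding transcripts (-0.98, adjusted p = 0.069).

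In complex IV, cytochrome c oxidase, 4 of 12 members fell, a share of 33.3% that lies near the 29.9% of all genes. Cox7a2l, known for its part in joining complexes III and IV into supercomplexes, was at 126 CPM in each of W1 to W3, 90.1 in W4, 89.4, 84.95 and 98.4 in D1 to D3 and 93.2, 98.6 and 89.4 in H1 to H3. Its log2 fold change was -0.46 ± 0.067 (adjusted p = 0.000745), and the 3 WT libraries lay within 1 CPM of each other (SD 0.386). Cox6c and Cox5a fell by 0.47 and 0.35 (adjusted p = 0.00072 and 0.0036), and Cox6a1, the isoform outside heart and muscle, by 0.38 (adjusted p = 0.035). Under library size alone Cox5a and Cox6a1 were at -0.14 and -0.18 and were not called. Cox5b and Cox7a2 had values of -0.21 and -0.19 that missed the threshold (adjusted p = 0.089 and 0.051), and Cox6b1 was at -0.06. Cox7a2 was called lower without D3 (-0.21, adjusted p = 0.036) and with a batch term (-0.23, adjusted p = 0.014), and turned to 0.01 under library size alone. Over coding transcripts Cox5b and Cox7a2 were called lower (-0.35 and -0.27, adjusted p = 0.037 and 0.018). Cox4i1 was at 164.5 ± 11.2 CPM in W1 to W3 and 153 ± 11.02 in D1 to D3 (SD, n = 3). Its paralog Cox4i2, known as the oxygen-responsive form, had the most positive value of the members, 0.28 ± 0.14 (SE; adjusted p = 0.11). It stood at 15.2, 16.6 and 11.6 CPM in W1 to W3, 15.3 in W4 and 16.9, 17.6 and 17.8 in D1 to D3, so that the rd10 DMSO libraries lay just above the WT ones.

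**Figure D2:**
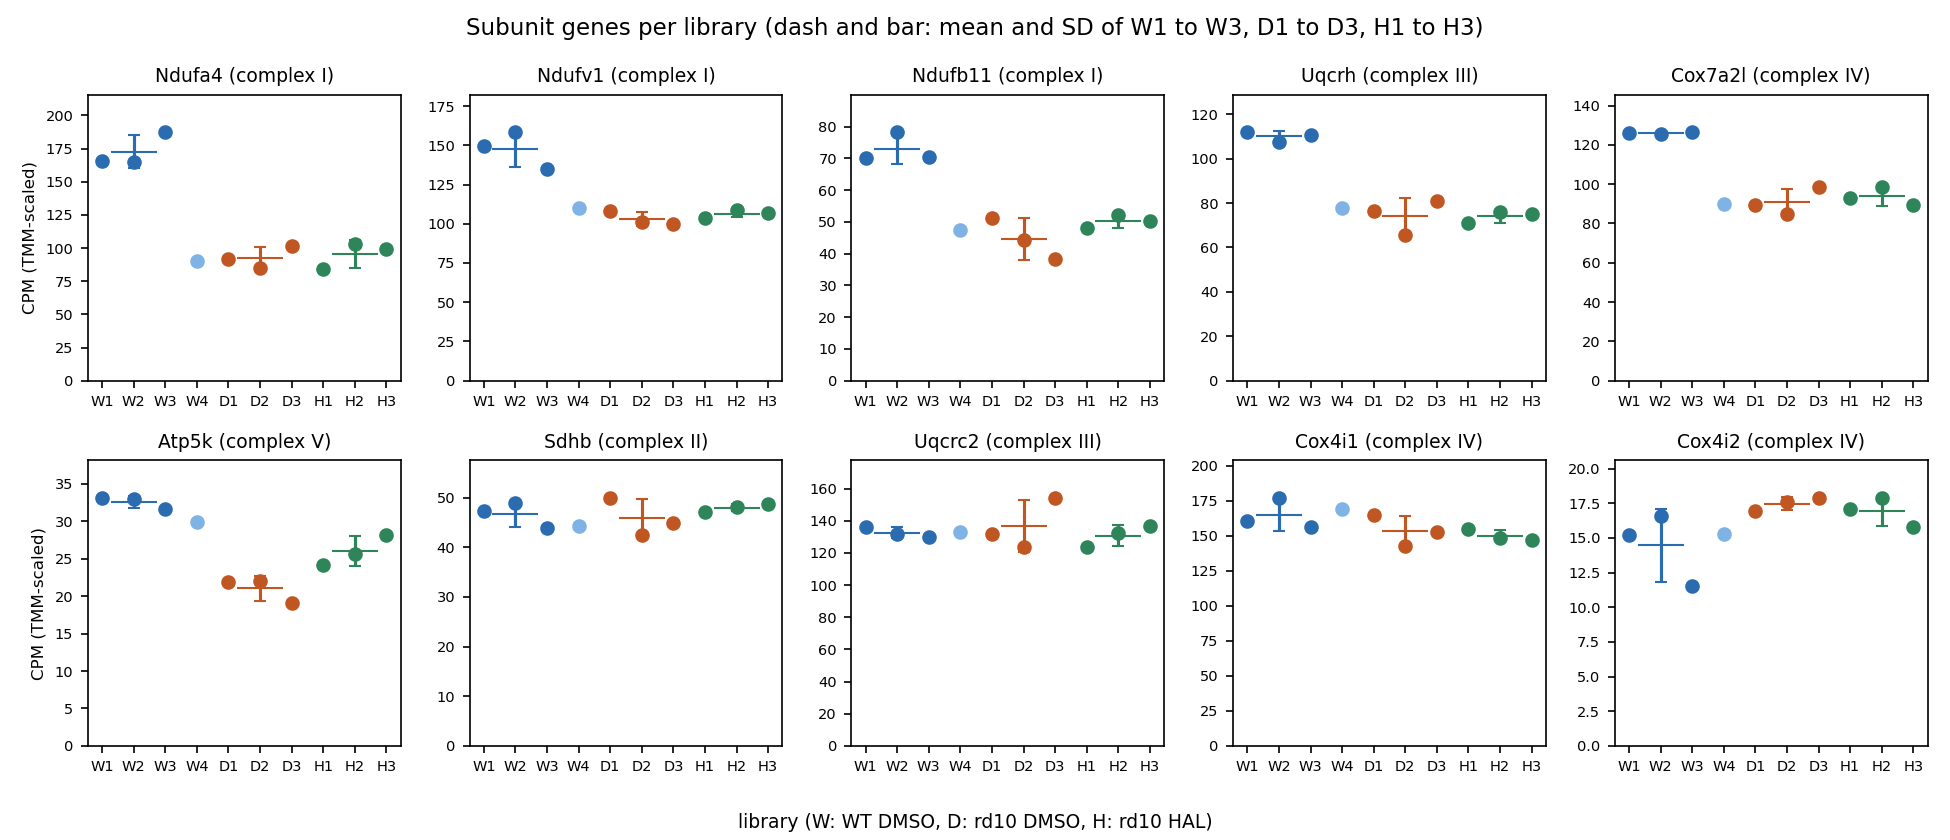
CPM after TMM scaling of 10 members in each library, with axes from 0 and the mean and SD of W1 to W3, D1 to D3 and H1 to H3. Ndufa4, Ndufv1, Ndufb11, Uqcrh and Cox7a2l were higher in W1 to W3 than in the 7 other libraries, W4 included, while Sdhb, Uqcrc2 and Cox4i1 overlapped between groups.

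In complex V, the ATP synthase, 8 of 16 members fell, beside the same 29.9% of all genes. The 2 largest falls were Atp5k and Atp5l, the small membrane subunits e and g, which sit where synthase dimers meet. Atp5k stood at 33.2, 32.9 and 31.6 CPM in W1 to W3, 29.9 in W4, 21.9, 22.1 and 19.1 in D1 to D3 and 24.2, 25.6 and 28.2 in H1 to H3 (log2 fold change in rd10 DMSO -0.62 ± 0.080, adjusted p = 0.00043). Here W4 lay nearer to the mean of W1 to W3 than to the means of D1 to D3 and of H1 to H3. Atp5l was at 90.7 ± 2.7 CPM in W1 to W3 and 63.4 ± 4.0 in D1 to D3 (SD, n = 3; edgeR adjusted p = 0.00044).

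In the catalytic head, Atp5b, Atp5c1 and Atp5a1 were at -0.31, -0.27 and -0.21 (adjusted p = 0.0056, 0.0089 and 0.031). None of these was called under library size alone. Atp5g1, one of the genes for the rotor ring, was at 89.2 ± 1.9 and 83.8 ± 6.6 CPM (SD, n = 3), and Atp5mpl, a small accessory protein, at 43.7 ± 1.7 and 44.4 ± 1.7. Neither was called. The synthase inhibitor Atpif1, which the symbol rule does not take, was at 36.7 ± 2.2 and 37.5 ± 0.94 CPM (SD, n = 3). It was not called under TMM scaling and was called higher under library size alone (0.25).

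**Figure D3:**
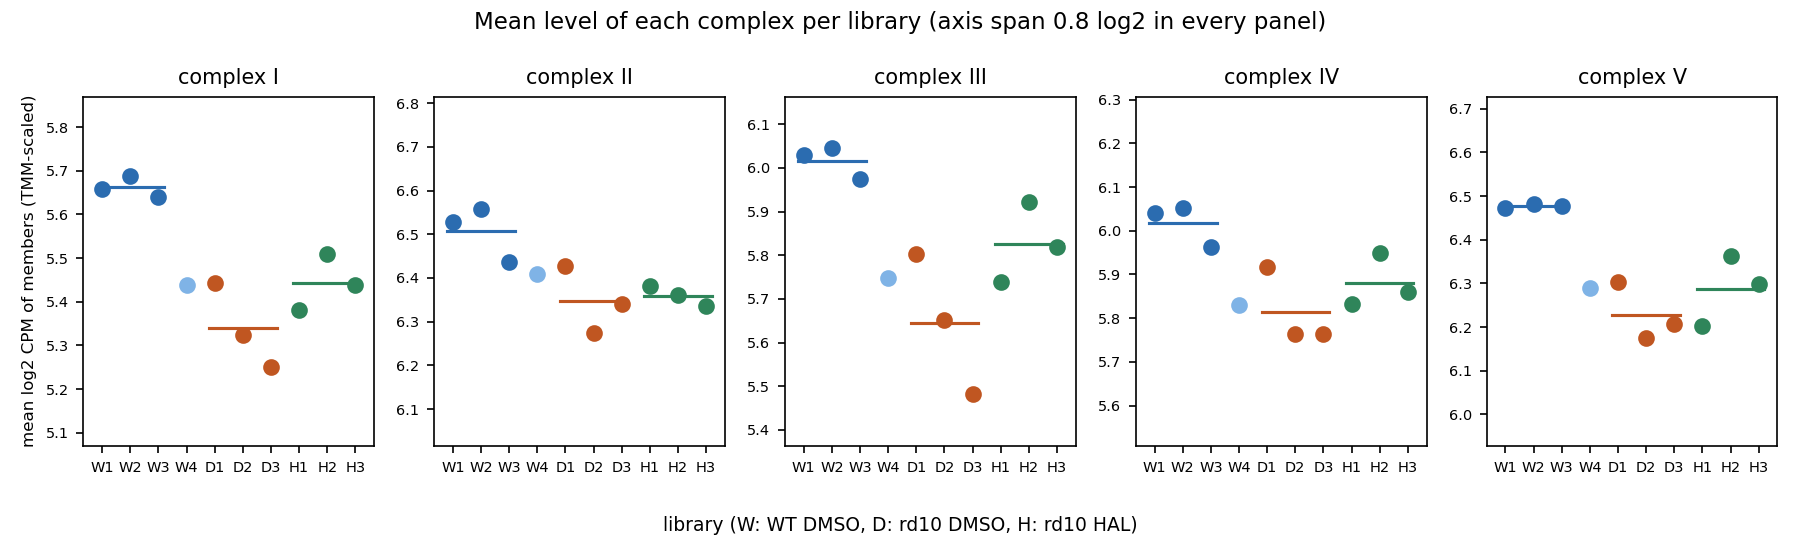
Mean log2 CPM (TMM-scaled) of the members of each complex per library; lines give the means of W1 to W3, D1 to D3 and H1 to H3. In complexes I, III, IV and V, W1 to W3 lie above all other libraries; in complex II, W3 at 6.44 and D1 at 6.43 nearly meet.

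Averaged over the 76 members, log2 CPM was 5.98 ± 0.026 in W1 to W3, 5.77 in W4, 5.69 ± 0.091 in D1 to D3 and 5.78 ± 0.066 in H1 to H3 (SD, n = 3). Complex V was the tightest in W1 to W3 (6.48 ± 0.004) and complex III the most scattered in D1 to D3 (5.65 ± 0.16, with D3 at 5.48). Leaving out D3, so that only batch 1 libraries enter, gave 44 members that fell, with 35.9% of all genes lower, and all 36 were among them. These 44 were 23 of complex I, 2 of complex II, 4 of complex III, 5 of complex IV and 10 of complex V, and the median of the members was -0.21.

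Retinal cell type markers also differed between rd10 DMSO and WT DMSO, here with W4 left out. All 12 rod markers fell in rd10 DMSO (median log2 fold change -3.41). Their summed level was 79500 to 83540 CPM in W1 to W3, 3119 in W4, 4219 to 11720 in D1 to D3 and 3986 to 9886 in H1 to H3, and none was at 0. Of 7 cone markers, 2 were higher and 2 lower, with sums of 1662 to 1830 CPM in W1 to W3 and 1403 to 1723 in D1 to D3. Markers of Muller glia rose at 5 of 5 (sums of 3171 to 3338 and 4639 to 5758 CPM) and of bipolar cells at 5 of 7. Amacrine markers rose at 5 of 5 and ganglion cell markers at 4 of 5. All 4 tested markers of gliosis and all 4 of microglia rose as well. Both of the 2 tested blood markers fell (median -0.97), with 0 called under library size alone. In bulk RNA, fewer cells of a type and less RNA per cell cannot be told apart, and the part of rod loss in the members' values was not tested.

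Single transcripts of members were then compared, since the authors also deposited estimates per transcript. This view was chosen after the gene values were seen. With W4 left out, 295 transcripts of members were tested. Of them, 20 (from 15 genes) were lower and 1 was higher, beside 7.52% and 7.98% of 57733 transcripts. The share of member transcripts called lower thus lies near that of all transcripts. Under library size alone 13 were lower and 1 higher, beside 6.07% and 10.5% of all transcripts, and without D3 28 were lower, beside 8.4%. Under the reference annotation, 8 of the 20 were protein-coding, of 148 tested, and 12 had other biotypes, of 147, most of them retained introns. As labelled, no member transcript was called.

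Ndufa4 had one of the larger transcript differences. Both of its main transcripts code for the same segments, 246 coding bases in all. Ndufa4-205 stood at 84.4, 91.9 and 92.2 CPM in W1 to W3 and 72.5, 66.5 and 77.8 in D1 to D3 (log2 fold change -0.33 ± 0.094, adjusted p = 0.069). Ndufa4-204 stood at 65.0, 57.7 and 75.8 CPM in W1 to W3, 5.02 in W4, 20.2, 18.2 and 16.8 in D1 to D3 and 22.2, 34.7 and 22.9 in H1 to H3, a log2 fold change of -1.86 ± 0.13 (adjusted p = 0.0012). W4 lay below all rd10 libraries for this transcript. The annotation places its start 14 bases upstream of that of Ndufa4-205 on chromosome 6 (GRCm38, minus strand), with an extra splice in the leader, and its end 84 bases short. Kallisto divides reads among overlapping transcripts, so these are estimates, and the reference used here is older than the annotation the authors used.

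**Figure D4:**
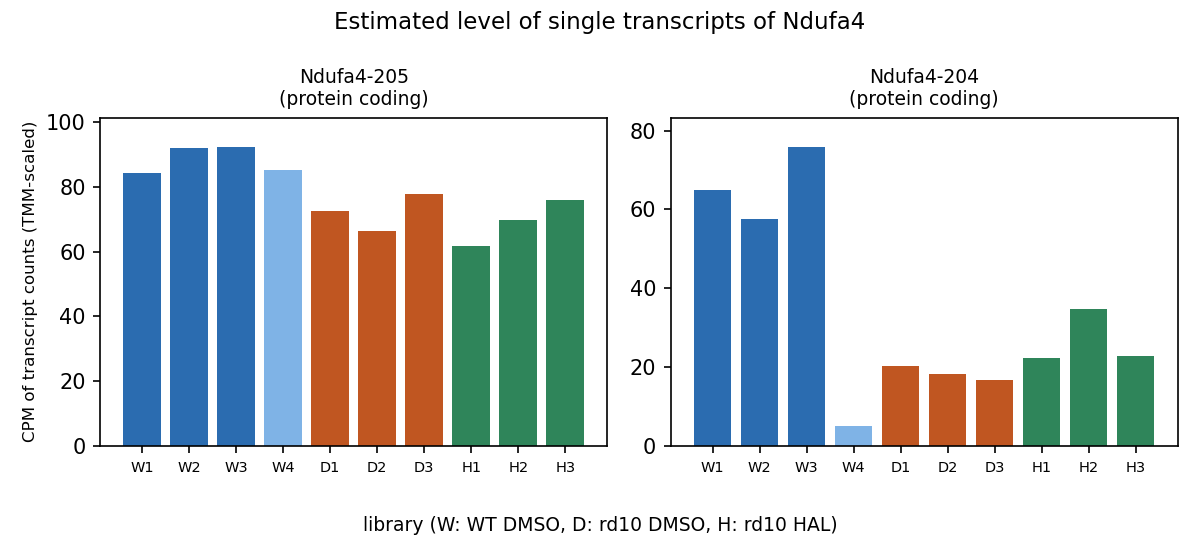
CPM of transcript counts (TMM-scaled) of 2 transcripts of Ndufa4 in every library, with bars from 0. Ndufa4-205 runs from 61.6 to 92.2 CPM over all libraries, while Ndufa4-204 is at 57.7 to 75.8 CPM in W1 to W3 and at 5.02 to 34.7 in the 7 other libraries.

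Among the other transcripts that fell were the coding forms Ndufb11-201, Ndufa10-201, Uqcrh-202, Ndufb8-201, Cox7a2l-201, Atp5k-201 and Atp5b-201, and retained introns of Uqcrc1, Ndufs7, Cox6c and Atp5l. Of these coding forms, Uqcrh-202, Ndufb8-201, Cox7a2l-201 and Atp5b-201 were not called under library size alone, and Ndufb8-201 was not called without D3 (adjusted p = 0.052). The 1 that rose was a retained intron of Atp5a1 (0.79, adjusted p = 0.038), and without D3, its highest rd10 library at 19.0 CPM, it was not called (0.65, adjusted p = 0.059). Over coding transcripts alone, 35 members fell and 0 rose (also 0 at an unadjusted p under 0.05), beside 26.9% of genes lower, and 31 of these were among the 36; the median was -0.30.

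Several isoforms used mainly in other tissues or conditions were not in the gene table. From the transcript estimates, in CPM, Ndufa4l2 was at 0.614 to 1.47, Cox7a1 at 0.943 to 1.97, Cox6b2 at 1.94 to 4.25, Cox8b at 0.404 to 6.29 and Cox6a2 at no more than 0.341 over the 10 libraries. Ndufb4 and Atp5g2, which belong to the members by name, were at 3.40 to 4.98 and 2.23 to 5.52 in that table and could not enter the gene-level test. The pair of genes left out fell too, Ndufb1-ps by 0.54 and Ndufb4c by 0.36 (adjusted p = 0.0051 and 0.04); for Ndufb4c the call did not hold without D3 (adjusted p = 0.056) or under library size alone.

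Other genes of the organelle were set beside the members, from lists chosen with earlier results known. Of 11 regulators of subunit genes, 6 fell and 0 rose (0 also at an unadjusted p under 0.05), beside 29.9% and 32.3% of all genes. Under library size alone 5 of the 6 were also called, beside 17.4% of all genes lower and 46.2% higher. Ppargc1a, the coactivator PGC-1α of mitochondrial biogenesis, stood at 81.3, 80.7 and 86.2 CPM in W1 to W3, 41.4 in W4, 40.2, 41.5 and 41.1 in D1 to D3 and 33.1, 41.5 and 43.4 in H1 to H3. Its log2 fold change was -1.003 ± 0.057 (adjusted p = 1.9e-05), and -0.82 with W4 kept (adjusted p = 0.19), with W4 at the rd10 level. Its homolog Ppargc1b fell by 1.59 (adjusted p = 1.8e-05). Nrf1, a transcription factor of nuclear subunit genes, stood at 54.7, 58.2 and 54.5 CPM in W1 to W3, 30.0 in W4 and 34.6, 33.3 and 34.8 in D1 to D3 (log2 fold change -0.69, adjusted p = 8.9e-05). Gabpb1 and Gabpa, subunits of the ETS factor GABP, fell by 0.58 and 0.27 (adjusted p = 0.0015 and 0.0074), the latter not under library size alone. Ppara, a fatty acid-sensing receptor, fell by 3.07, from 21.4 to 23.3 CPM in W1 to W3 to 1.58 to 4.55 in D1 to D3. Esrra, Tfam, Yy1, Tfb2m and Pprc1 were not called, with values from -0.11 to 0.03. Yy1 was called lower without D3 (-0.14, adjusted p = 0.030).

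**Figure D5:**
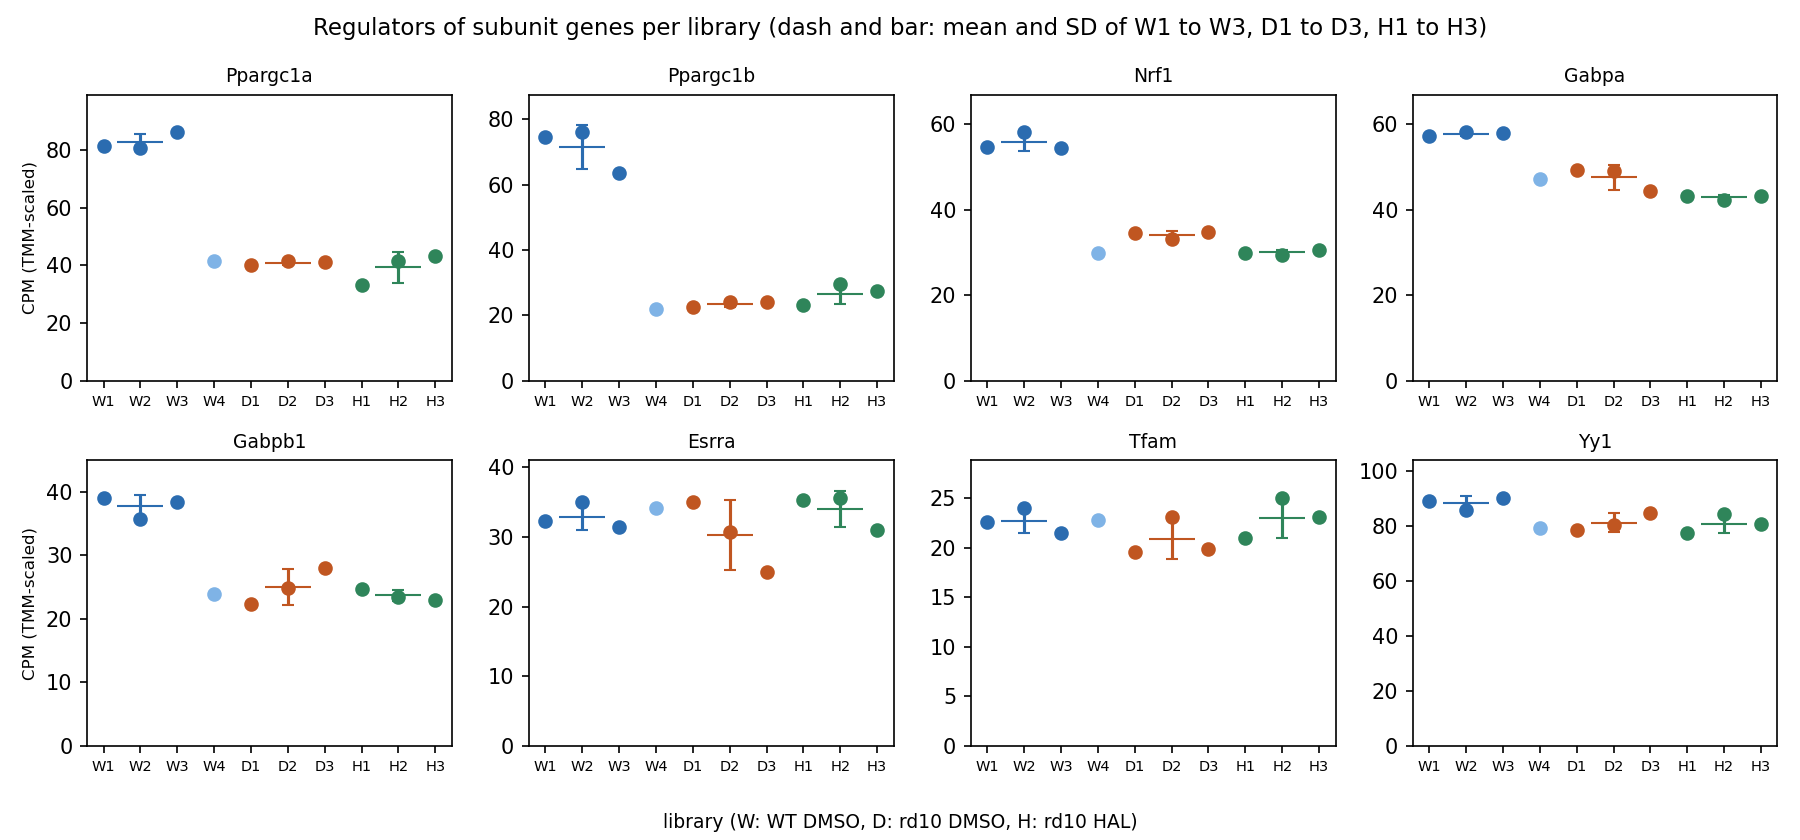
CPM after TMM scaling of 8 regulators of subunit genes per library, with the mean and SD of W1 to W3, D1 to D3 and H1 to H3. Ppargc1a, Ppargc1b, Nrf1, Gabpa and Gabpb1 lie lower in W4 and the 6 rd10 libraries than in W1 to W3, while Esrra and Tfam overlap and Yy1 is at 85.7 to 90.2 CPM in W1 to W3 and 77.4 to 84.7 in the others.

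Promoter windows from RefSeq (GRCm38.p6, 250 bases before to 50 after the start) matched 60 of the 76 members. The palindromic core of the NRF1 motif was in 4 of 60 members (6.67%) and in 1.07% of 27025 genes. The letters CCGGAAG of the ETS family, on either strand, were in 16 members (26.7%) and 9.93% of genes, and the core of the YY1 motif, on either strand, in 5 members (8.33%) and 0.995% of genes. Among members that fell, 3 of 28 with a window held the NRF1 letters and 8 of 28 the ETS letters; among the others it was 1 of 32 and 8 of 32. The YY1 letters were in 2 of 28 members that fell and 3 of 32 others. Such matches are a description of letters and not of binding. Parts of 4 windows of members that fell are printed 5′ to 3′ with the NRF1 or ETS letters in capitals, cut so that at most 20 bases of the gene's own exons are shown.
Cox6a1, chr5:115348962-115349208, minus strand: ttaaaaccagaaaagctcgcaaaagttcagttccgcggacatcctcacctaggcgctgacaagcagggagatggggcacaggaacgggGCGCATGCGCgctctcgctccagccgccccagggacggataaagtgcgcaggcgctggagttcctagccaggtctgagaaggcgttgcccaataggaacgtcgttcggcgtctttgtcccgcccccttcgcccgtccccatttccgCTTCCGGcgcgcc
Atp5k, chr5:108434429-108434649, minus strand: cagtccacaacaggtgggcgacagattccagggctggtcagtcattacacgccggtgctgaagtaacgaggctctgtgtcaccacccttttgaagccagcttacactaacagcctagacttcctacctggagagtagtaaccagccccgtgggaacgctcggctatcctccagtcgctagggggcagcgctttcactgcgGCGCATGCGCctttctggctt
Atp5l, chr9:44920743-44920992, minus strand: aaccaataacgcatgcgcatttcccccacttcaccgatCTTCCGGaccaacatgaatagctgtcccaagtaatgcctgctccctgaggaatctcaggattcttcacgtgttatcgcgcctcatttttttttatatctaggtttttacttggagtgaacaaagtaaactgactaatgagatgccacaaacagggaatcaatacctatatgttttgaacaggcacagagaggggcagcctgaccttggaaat
Atp5e, chr2:174464102-174464351, minus strand: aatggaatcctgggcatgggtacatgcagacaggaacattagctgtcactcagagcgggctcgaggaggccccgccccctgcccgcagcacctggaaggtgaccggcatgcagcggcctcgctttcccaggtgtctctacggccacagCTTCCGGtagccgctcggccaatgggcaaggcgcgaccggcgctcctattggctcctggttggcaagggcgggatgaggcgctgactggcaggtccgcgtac

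Of the 13 mitochondrially encoded subunits, 3 fell (mt-Nd3, mt-Nd4l and mt-Cytb, by 0.44, 0.37 and 0.28) and 0 rose, beside 29.9% and 32.3% of all genes. Under library size alone 0 fell and 3 rose, beside 17.4% and 46.2% of all genes. Without D3, 5 fell, beside 35.9% of all genes. The value of mt-Nd3, at 144 CPM in D3 against 213 and 225 in D1 and D2, was then -0.26. Their summed level was 37700 to 41150 CPM in W1 to W3 and 36010 to 39090 in D1 to D3, so the groups overlap. Of 10 tested complex I assembly factors, 3 fell, led by Ndufaf5 (-0.72, adjusted p = 0.00035), and of 24 assembly factors of complexes II to V, 8 fell and 2 rose. Both counts lie near the 29.9% of all genes called lower. Without D3 they were 5 of 10 and 10 of 24, beside 35.9% of all genes. Uqcc3, an assembly factor of complex III, stood at 49.7, 57.1 and 49.9 CPM in W1 to W3, 13.3 in W4 and 12.7, 12.4 and 17.7 in D1 to D3, a log2 fold change of -1.88. Coa7, for complex IV, fell by 0.73, and Atpaf1, for complex V, rose by 0.47.

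Of 16 genes of the tricarboxylic acid cycle, 5 fell and 2 rose, with a median of -0.01, and under library size alone 1 fell and 10 rose. Of all genes, 29.9% fell and 32.3% rose, and under library size alone 17.4% and 46.2%. Citrate synthase (Cs) was at 165 to 179.5 CPM in W1 to W3 and 175 to 189 in D1 to D3 (log2 fold change 0.06, adjusted p = 0.40; 0.27 and called under library size alone). Pdhb of the pyruvate dehydrogenase fell by 0.52, and Suclg2, of the GTP-forming succinyl-CoA ligase, rose by 1.42. Of 14 tested genes of the mitochondrial membranes and import, 6 fell and 2 rose (under library size alone 5 and 6). Slc25a5, an ADP/ATP carrier, fell by 0.93 and the import motor subunit Timm44 by 0.94, while its fellow carrier Slc25a4 was at 0.10 and not called under TMM scaling, and at 0.31 and called higher under library size alone. Ckmt1, the mitochondrial creatine kinase, fell by 1.22, and the cytosolic Ckb was not called (0.07). The value of Ckb rests on D3, at 592 CPM against 1105 and 1026 in D1 and D2, and without D3 it was called higher (0.30, adjusted p = 0.015).

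The question for halofantrine was whether it moved the respiratory chain of the rd10 retina. In rd10 HAL against rd10 DMSO, edgeR called 0 of 76 members, beside 0% of 11692 genes, and DESeq2 and limma-voom also called 0 members. At an unadjusted p under 0.05, 3 members were higher and 0 lower (4.76% of all genes in either direction). With a batch term over all 10 libraries it was 6 higher and 0 lower (3.29% and 1.11% of all genes), with a median of 0.04, and by DESeq2 and limma-voom 5 higher each (3.15% and 2.77%). The median log2 difference of the members was 0.07 against -0.004 over all genes, with 53 of 76 members above 0. By complex it was 0.08 for complex I, -0.006 for complex II, 0.09 for complex III, 0.05 for complex IV and 0.04 for complex V. Marker genes of other cell types differed in sign, with no call. All 12 rod markers had positive values (median 0.14), and their summed level was 4219, 4356 and 11720 CPM in D1 to D3 and 3986, 9886 and 8262 in H1 to H3. All 7 cone markers were positive as well (median 0.10, sums of 1403 to 1723 and 1438 to 2020 CPM). Positive values also stood at 6 of 7 bipolar (median 0.07), 4 of 5 ganglion (0.07), 3 of 5 Muller glia (0.06) and 3 of 5 amacrine markers (0.02). Both tested blood markers had positive values (median 1.36, sums of 10.3 to 21.4 and 7.48 to 64.4 CPM). Negative values stood at all 3 tested markers of the retinal pigment epithelium (median -0.64, sums of 133 to 287 and 90.5 to 185 CPM), all 4 of microglia (median -0.08) and 3 of 4 of gliosis (median -0.22). Their part in the members' values was not tested.

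The 3 members with the smallest p were Atp5k, Ndufa6 and Ndufb7. Atp5k was at 21.9, 22.1 and 19.1 CPM in D1 to D3 and 24.2, 25.6 and 28.2 in H1 to H3, without overlap, and below the 31.6 to 33.2 of W1 to W3 (difference 0.30 ± 0.094, edgeR adjusted p = 0.88). Ndufa6, an accessory subunit of complex I, was at 31.0 ± 2.5 and 37.0 ± 3.7 CPM (SD, n = 3), and Ndufb7 at 31.5 ± 5.1 and 38.4 ± 0.92, with edgeR adjusted p = 0.88 for both. The largest value, 0.66 ± 0.36 for Uqcrq, goes with the low level of D3, and without D3 it was 0.32 ± 0.099, still the largest of the members (edgeR adjusted p = 0.68). Ndufa4, Uqcrh and Cox7a2l had differences of 0.04, -0.005 and 0.04, with standard errors of 0.076 to 0.10. The members Ndufa13, Ndufb8, Cox6a1 and Cox6b1 were at 0.14, 0.06, 0.29 and -0.04 (edgeR adjusted p = 0.92, 0.93, 0.88 and 0.94). Without D3, Ndufa13 was at -0.008, Cox6a1 at 0.18 and Ndufb7 at 0.17. Within batches the median difference of the members was -0.002 in batch 1 (H1 against D1 and D2) and 0.108 in batch 2 (H2 and H3 against D3), each with 1 library in a group. By the titles, H1, D1 and D2 share a set, whereas D3 is in another set than H2 and H3. Set and treatment therefore cannot be told apart in batch 2, and the batch term does not separate these sets. Of the 11 regulators edgeR called 0, with 1 at an unadjusted p under 0.05, Nrf1 (-0.19).

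In rd10 HAL against WT DMSO, which uses the same WT libraries, 0 members were called as labelled by edgeR (0.00855% of all genes lower and 0% higher) and limma-voom, and 13 by DESeq2, all lower (12.6% of all genes lower). Of the 76, 19 were lower and 0 higher at an unadjusted p under 0.05, beside 21.1% and 13.6% of all genes. With W4 left out, 39 of 76 fell and 0 rose (0 at an unadjusted p under 0.05), beside 36.2% of all genes lower and 35.7% higher. These were 20 of complex I, 2 of complex II, 3 of complex III, 4 of complex IV and 10 of complex V. Under library size alone it was 10 lower and 13 higher, beside 20.9% and 51% of all genes. Side by side, the log2 fold changes against WT in rd10 DMSO and rd10 HAL were -0.89 and -0.86 for Ndufa4, -0.56 and -0.57 for Uqcrh, -0.46 and -0.43 for Cox7a2l, and -0.62 and -0.33 for Atp5k; both comparisons rest on the same 3 WT libraries.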

How the data were processed

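The authors prepared stranded mRNA libraries (TruSeq), quantified transcripts by Kallisto pseudoalignment (Ensembl 115, and GRCm39 in the submitters' processing notes) and imported the values with tximport. They deposited estimated counts per transcript and per gene, unscaled, and a CPM table, a signal scaled by a factor per library, used here only to check the gene list. The authors' table of their own halofantrine comparison (fold changes and p-values) was not used. Estimated counts were rounded, filtered with filterByExpr, scaled by TMM and tested with the quasi-likelihood test of edgeR 4.0.16 (R 4.3.3) with Benjamini-Hochberg adjustment over all genes, calling an adjusted p under 0.05. Comparisons as labelled used 7, 6 and 7 libraries without a batch term. Standard errors came from the F statistic; log2 CPM used a prior count of 2. Alternatives were DESeq2 1.42.0, limma-voom (limma 3.58.1), other scalings and filters, batch terms and leaving out libraries. One member is not reported here by name, though it enters the counts. Members and lists were chosen with earlier results of these data known. Named genes were catalytic or structural members, tissue paralogs, the 2 members per complex and direction with the smallest p in rd10 DMSO against WT without W4, the 3 with the smallest p for halofantrine, and members the study drew; some genes of this rule are not described, and the likest non-members were left out because libraries fall into separate clusters. Gene and transcript names and biotypes came from GENCODE M21 (GRCm38); all 76 members had their counts in its transcripts. Within groups, chi-square per degree of freedom between libraries ran from 4.48 to 431, so no library was a copy. The fits were tested on simulated data.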

Additional observations from a re-analysis of the deposited data

Results flagged for a closer look

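Of 69 levels examined in the WT DMSO group of 4, 18 had 1 library far from the other 3, by the gap to its neighbour over the range of the group; chance gives about 1 in 20. For subunit genes the ratio was 0.911 for Sdha, 0.872 for Uqcrh, 0.896 for Cox6c, 0.979 for Cox7a2l and 0.932 for Ndufa10, with the library labelled WT W4 below the others in each. It was 0.923 for Cox7a2 and 0.835 for Ndufa13, where W1 and W2 were the high libraries. For the mean log2 CPM of complex V it was 0.954, with W4 at 6.29 and W1 to W3 at 6.47 to 6.48.

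Among regulators and other mitochondrial genes the ratio was 0.878 for Ppargc1a, 0.870 for Nrf1, 0.924 for Gabpa, 0.915 for Ppara, 0.832 for Uqcc3, 0.867 for Slc25a5, 0.842 for Timm44, 0.848 for Immt and 0.963 for Pdhb, all with W4 low, and 0.853 for Suclg2 with W4 high.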

How the results depend on the processing

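No paired analysis was possible because the numbers in the sample titles run within sets, and the 1 set that holds libraries of 2 groups repeats no number between them. Leaving out 1 library at a time gave 0 to 36 members lower in rd10 DMSO against WT DMSO (median -0.255 to -0.185) and 0 to 39 in rd10 HAL against WT DMSO (median -0.182 to -0.109), the highest counts being those without the library labelled WT W4; for halofantrine against DMSO in rd10 it gave 0 calls and medians of 0.023 to 0.103.

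In rd10 DMSO against WT DMSO, members called lower were 3 by DESeq2 as labelled (4.26% of all genes) and, with W4 left out, 35 by DESeq2 (29.8%), 38 by limma-voom (31%), 44 within batch 1 and 45 with a batch term (35.9% in both), 35 over coding transcripts (26.9%) and 12 under library size alone (17.4%), where 5 were higher (46.2%). The median was -0.045 under library size alone as labelled, -0.039 with W4 left out as well, and -0.302 over coding transcripts with W4 left out. In rd10 HAL against WT DMSO, members called lower were 13 by DESeq2 as labelled (12.6% of all genes) and, with W4 left out, 33 with a batch term (34.3%), 42 over coding transcripts (33.7%) and 10 under library size alone (20.9%), where 13 were higher (51%); the median under library size alone was 0.018 as labelled and 0.027 with W4 left out. The batch term with W4 left out, coding transcripts and, for rd10 HAL against WT, library size with W4 left out were chosen after seeing the data. The cause of these shifts was not tested.

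The following changed sign in rd10 DMSO against WT DMSO; none was called as labelled. Under library size alone the log2 fold changes became 0.073 for Ndufv2, 0.080 for Ndufs1, 0.004 for Sdha, 0.150 for Sdhb, 0.008 for Sdhd, 0.004 for Cyc1, 0.083 for Uqcrfs1, 0.041 for Cox4i1, 0.130 for Cox6b1, 0.119 for Atp5g1 and 0.017 for Ndufa6. With W4 left out as well they were 0.096 for Ndufv2, 0.093 for Ndufs1, 0.031 for Sdha, 0.187 for Sdhb, 0.045 for Sdhd, 0.020 for Cyc1, 0.107 for Uqcrfs1, 0.112 for Cox4i1, 0.145 for Cox6b1, 0.013 for Cox7a2, 0.125 for Atp5g1, 0.022 for Ndufa13 and 0.063 for Ndufa6. Sdhb was at 0.003 by DESeq2, 0.004 under relative log expression scaling and 0.012 within batch 1 (-0.010 there without W4). Over coding transcripts Sdhb was at 0.021, with or without W4. Uqcrc2 was at -0.049 within batch 1, -0.047 there without W4, -0.030 with a batch term, with or without W4, and -0.028 over coding transcripts (-0.024 without W4). Cyc1 was at 0.117 over coding transcripts (0.178 without W4), Ndufa8 at -0.004 over coding transcripts, and Atp5mpl without W4 at -0.014 with a batch term and -0.016 over coding transcripts. Leaving out 1 library moved Sdhb between -0.065 and 0.053, Cox6b1 between -0.060 and 0.031, Ndufa8 between -0.041 and 0.082, Atp5g1 between -0.081 and 0.030 and Uqcrc2 between -0.049 and 0.119. Of the other values for single genes under these settings, 747 kept direction and side of the threshold and 179 gained a call.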
